A study of Mus musculus with 26 samples.

Results

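RNA was sequenced from the epithelium of the mouse proximal small intestine 30 days after the start of injections that delete Tbx3 in that epithelium, and the account below covers this knockout against its own controls. The 6 libraries are those of the TBX3 experiment, 3 labelled TBX3 iKO (inducible knockout) and 3 labelled control, out of 26 libraries in the series. Mice received intraperitoneal injections on 4 days in a row, and day 30 counts from the first of them. The iKO mice were given tamoxifen, which activates Villin-CreERT2, a Cre recombinase made in the epithelial cells that express villin. The 3 controls are labelled as given oil, and the protocol calls oil-treated controls Cre-positive, with littermate and sex matching. Tamoxifen, Cre activity and loss of Tbx3 therefore all differ together between the groups, and their parts cannot be told apart within these 6 libraries. RNA came from whole epithelium preparations, so crypt and villus cells and the lymphocytes lodged between them were sequenced together.

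TBX3 belongs to the T-box transcription factors, which bind DNA through a shared domain and recognise sites built around the letters AGGTGTGA. It acts mainly as a repressor and is best known from limb, breast and heart development. In the small intestine, cells born in the crypt change their set of genes as they move up the villus, with antimicrobial genes strongest near the villus base, nutrient handling in the middle and cell-shedding and immune genes at the tip. BMP signals, which SMAD1, SMAD5 and SMAD4 carry to the nucleus, are among the signals that set these zones, and the series as a whole asks how SMADs and TBX3 shape them.

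Values are FPKM, fragment numbers scaled to the length of a transcript and to the size of the library. Approximate depths read from the spacing of the FPKM values were 12.3, 18.6 and 12.6 megafragments in control libraries 1, 2 and 3 and 10.003, 12.6 and 11.2 megafragments in iKO libraries 1, 2 and 3. Correlations across genes were 0.974 to 0.978 between controls and 0.959 to 0.977 between iKO libraries. Levels of Xist and of Y-linked genes were those of males in all 6. The 12 epithelial markers summed to between 18730 and 24911 FPKM in every library, and none of them passed the test. Markers of nerve, glia and blood summed to at most 0.294 FPKM, and those of stroma, muscle and endothelium to at most 10.4 FPKM. Library iKO 2 stood apart from iKO 1 and iKO 3. Its T cell and intraepithelial lymphocyte markers summed to 257 FPKM, against 43.8 and 50.2 in the other two and 109 to 178 in controls. Its goblet cell markers summed to 3940 FPKM against 1081 and 728, and its B and plasma cell markers to 20.3 FPKM against 1.67 and 7.88. Results are given with and without this library only where stated. The labels do not say that the libraries of a group came from separate animals, so p-values measure only the spread between these libraries.

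The targeted gene was lower in all 3 iKO libraries. Tbx3 stood at 45.5, 53.7 and 56.3 FPKM in control libraries 1, 2 and 3 and at 16.9, 7.53 and 22.9 FPKM in iKO libraries 1, 2 and 3, an order kept for all values below. The iKO mean was 15.8 ± 7.76 FPKM (SD, n = 3) against 51.8 ± 5.63 FPKM (SD, n = 3), and the groups did not overlap. The difference was -1.81 ± 0.36 (SE) on the log2 scale, with an adjusted p of 0.0479 (limma). The call sits at the edge of the threshold and was lost without any 1 of the controls or iKO 1, with adjusted p up to 0.169. Which exons were removed is not given in the sources used here, and fragments from exons that remain count towards Tbx3. In bulk RNA, fewer cells with a transcript and less of it per cell cannot be told apart, here and below.

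The largest change of all genes lay next to Tbx3. Tbx3os2, a long noncoding RNA whose gene adjoins Tbx3, stood at 1.88, 1.44 and 1.00 FPKM in controls and at 64.2, 58.1 and 49.9 FPKM in iKO libraries. The rise was 4.92 ± 0.19 (SE) on the log2 scale, adjusted p 1.37e-04 (limma), and it held in each fit without 1 library. The iKO values lay close to each other, and groups that do not overlap were common to all called genes. In the 3 SMAD comparisons set beside it here, where Tbx3 also fell, Tbx3os2 fell by 2.14 (SMAD1/5 double knockout, iDKO, day 6), 1.93 (iDKO, day 30) and 2.41 (SMAD1/4/5 triple knockout, iTKO, day 30) on the log2 scale. Whether the counting used strand is not given in the sources used here, so fragments of overlapping transcripts on opposite strands could not be separated.

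Genes were tested where 3 or more of the 6 libraries reached 1 FPKM, and 336 of these 9788 genes (3.43%) passed an adjusted p of 0.05 in the limma fit. In iKO epithelium 131 genes (1.34%) were higher and 205 (2.09%) were lower, 82 of each by more than 2-fold. All 336 had groups that did not overlap, so separate groups in a called gene add nothing to its call. Genes called higher had a median log2 change of 1.17, and genes called lower one of -0.88, against -0.06 over all genes tested. The median control level was 16.2 FPKM for the lower genes and 7.3 FPKM for the higher ones. Controls are the group in which genes called lower are high, so these medians do not rank the lists by abundance. After each library was centred on its median, 154 genes were higher and 135 lower, so 53.3% of calls were rises where the uncentred values gave 39.0%. Log2 changes are of FPKM + 0.5, which understates changes of genes near 0. The counts lean on single libraries: leaving out control 3 left 25 higher and 22 lower, and leaving out iKO 2 gave 127 higher and 219 lower.

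**Figure D1:**
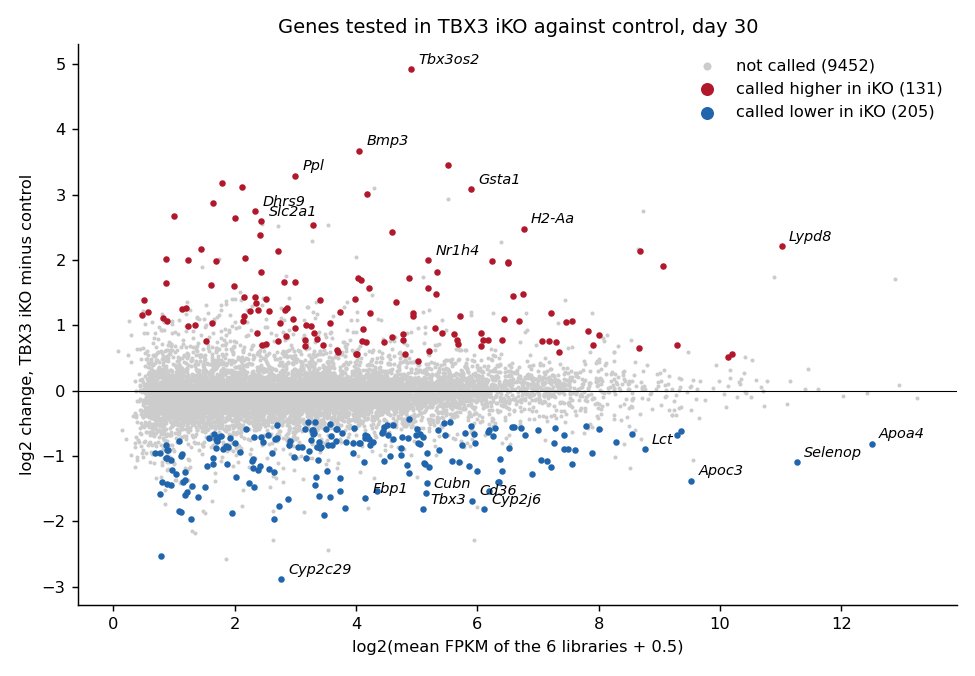
Log2 change of each of the 9788 genes tested (vertical axis, TBX3 iKO minus control) against the log2 of the mean FPKM of the 6 libraries plus 0.5 (horizontal axis), one point a gene. The 131 genes called higher are red and the 205 called lower are blue, with Tbx3os2 at 4.92 above all others and Apoa4 and Selenop the most abundant of the genes called lower.

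Among the 12 largest rises with a mean of at least 5 FPKM in the higher group, several genes were nearly silent in control epithelium. A ranking by log2 rise favours such genes. Nxpe3, Sh3tc1, Trim46 and Dhrs9 reached 1 FPKM in no control and passed the filter through their iKO values alone. Bmp3, a secreted member of the BMP family that is known to oppose other BMPs, stood at 2.67, 1.38 and 1.63 FPKM in controls and at 28.6, 40.9 and 21.3 FPKM in iKO libraries (log2 change 3.67 ± 0.28 SE, adjusted p 3.11e-03, limma). Ppl, which encodes periplakin, a cytolinker that ties keratin filaments to cell junctions, stood at 1.14, 0.961 and 0.857 FPKM in controls and at 13.4, 14.8 and 13.8 FPKM in iKO libraries. The 3 iKO values of Ppl lay close together, and its rise was 3.29 ± 0.12 (SE), adjusted p 1.37e-04 (limma). Nxpe3 went from at most 0.591 FPKM in controls to 8.09, 8.65 and 5.15 FPKM. Sh3tc1 went from at most 0.668 FPKM to 7.48, 6.33 and 5.57 FPKM. Myl7, a myosin light chain best known from the heart atrium, stood at 4.42, 2.01 and 4.16 FPKM in controls and at 40.7, 31.3 and 22.8 FPKM in iKO libraries. The calls of Bmp3, Ppl, Nxpe3, Sh3tc1 and Myl7 held in each fit without 1 library.

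Trim46, which organises microtubules in neurons, stood at 0.258, 0.0142 and 0.104 FPKM in controls and at 4.11, 10.2 and 3.08 FPKM in iKO libraries. Its controls rest on 12, 1 and 5 fragments at the estimated depth, so its rise of 3.18 on the log2 scale has a weakly known base. Slc2a1, the glucose transporter GLUT1, stood at 1.79, 0.614 and 0.813 FPKM in controls and at 7.87, 11.8 and 6.67 FPKM in iKO libraries. Ubd, a ubiquitin-like modifier that cytokines induce, stood at 4.99, 3.99 and 10.03 FPKM in controls and at 27.8, 134 and 89.1 FPKM in iKO libraries, a wide spread within the knockout. Gsta1, a glutathione transferase with near-identical relatives whose fragments could be split between them, stood at 16.5, 4.34 and 18.4 FPKM in controls and at 126, 56.6 and 131 FPKM in iKO libraries. Mir6955 was called at 2.87 on the log2 scale from 3, 8 and 2 fragments against 0, 1 and 0, and a polyadenylated library does not measure mature miRNAs. It kept its call in 1 of the 6 fits without 1 library. The calls of Ubd and Gsta1 were lost without any 1 control (adjusted p up to 0.111 and 0.123), that of Trim46 without control 2 or control 3 (up to 0.064), and that of Slc2a1 without control 3 (0.0634).

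Dhrs9, a dehydrogenase that oxidises retinol on the way to retinoic acid, completes the 12, and its promoter is shown because, among those of the 24 most changed genes with a window in the RefSeq table, it alone holds the T-box letters. Sequences come from RefSeq on GRCm38.p6, the 250 bases before the start of the gene, written along the gene's strand, with AGGTGTGA in capitals. The promoter of Tbx3os2, picked after its rise was seen, is set beside it and holds no match on either strand. The windows are chr2:69380212-69380461 on the plus strand for Dhrs9 and chr5:119691219-119691468 on the minus strand for Tbx3os2.
Dhrs9: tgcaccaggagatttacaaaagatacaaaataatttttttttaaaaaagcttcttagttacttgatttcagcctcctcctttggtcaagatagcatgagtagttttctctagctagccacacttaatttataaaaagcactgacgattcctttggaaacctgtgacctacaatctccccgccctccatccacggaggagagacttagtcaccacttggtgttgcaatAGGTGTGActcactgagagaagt
Tbx3os2: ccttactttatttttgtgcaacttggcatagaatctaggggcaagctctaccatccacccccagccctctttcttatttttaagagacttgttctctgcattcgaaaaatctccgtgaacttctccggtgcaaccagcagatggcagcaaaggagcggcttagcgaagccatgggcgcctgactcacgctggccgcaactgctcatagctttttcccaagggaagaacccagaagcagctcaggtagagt

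The AGGTGTGA of Dhrs9 begins at base -23 from the start and runs on the gene's own strand. Dhrs9 itself stood at 0.875, 0.755 and 0.758 FPKM in controls and at 9.58, 6.95 and 8.34 FPKM in iKO libraries, a rise of 2.75 ± 0.15 (SE) with adjusted p 1.20e-03 (limma) that held in each fit without 1 library. Both groups were tight, and the gene was picked among those whose groups do not overlap. Its controls were all under 1 FPKM, so it passed the filter through its iKO values alone. Searched on both strands in windows of 250 bases before to 50 after a start, AGGTGTGA was in 3 of 135 windows of genes called higher (2.22%) and in 7 of 214 windows of genes called lower (3.27%). It was in 0.943% of the 9651 windows of genes tested and in 1.28% of all 32851 windows. Besides Dhrs9, the genes called higher with a match were Plut and Plac8, and those called lower were Rnf152, Itpripl1, Tmem144, Fam234b, Tubal3 and Prlr. These are matches of letters, not measured binding. The shorter GGTGTGA, which lies within AGGTGTGA, was in 3.70% of windows of genes called higher, 5.61% of those of genes called lower and 3.37% of those of genes tested.

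The largest fall was that of Cyp2c29, a cytochrome P450, which stood at 15.7, 11.2 and 7.37 FPKM in controls and at 1.70, 0.702 and 0.904 FPKM in iKO libraries (log2 change -2.88 ± 0.32 SE, adjusted p 0.00971, limma). Cyp2j6, a P450 abundant in the small intestine, stood at 102, 105 and 114 FPKM in controls and at 26.8, 37.8 and 26.8 FPKM in iKO libraries. Cd36, the fatty acid translocase that takes up long-chain fatty acids, stood at 78.3, 106 and 90.1 FPKM in controls and at 23.9, 29.8 and 30.8 FPKM in iKO libraries. Each of the 3 genes was picked among those whose groups do not overlap, and each call held in every fit without 1 library. Fbp1, the fructose bisphosphatase of gluconeogenesis, stood at 25.5, 28.4 and 25.4 FPKM in controls and at 6.75, 8.32 and 9.44 FPKM in iKO libraries. Rtn4rl1, a relative of the Nogo receptor, stood at 11.4, 8.85 and 8.17 FPKM in controls and at 1.79, 2.26 and 2.10 FPKM in iKO libraries. H2-T-ps, an MHC pseudogene with near-identical copies, went from 17.9, 19.9 and 14.5 FPKM to 6.37, 4.70 and 4.77 FPKM. The calls of Fbp1, Rtn4rl1 and H2-T-ps also held without any 1 library.

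The other falls among the 12 were less firm. Ugt2b5, a glucuronosyltransferase, fell by 1.79 on the log2 scale, from 28.8, 19.2 and 16.4 FPKM to 6.35, 6.86 and 4.18 FPKM. Akr1c14, a hydroxysteroid dehydrogenase, fell by 1.90, Rdh16f2, a member of a retinol and steroid dehydrogenase family, fell by 1.61, and Mmp15, a membrane metalloproteinase, fell by 1.76 on the log2 scale. All 4 had groups that did not overlap, as had all 336 called genes. Akr1c14 and Mmp15 each kept their call in only 1 of the 6 fits without 1 library (adjusted p up to 0.108 and 0.131, limma). Ugt2b5 and Rdh16f2 kept theirs in 3 of the 6 (up to 0.0636 and 0.0682). Mir194-2 was called at -1.87 on the log2 scale from 10, 8 and 3 fragments against 1, 1 and 1. It kept its call in 1 of the 6 fits without 1 library and under 2 of 7 other settings. Cyp2c29, Ugt2b5, Akr1c14 and Rdh16f2 belong to families of near-identical genes, so the split of fragments between relatives is uncertain.

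**Figure D2:**
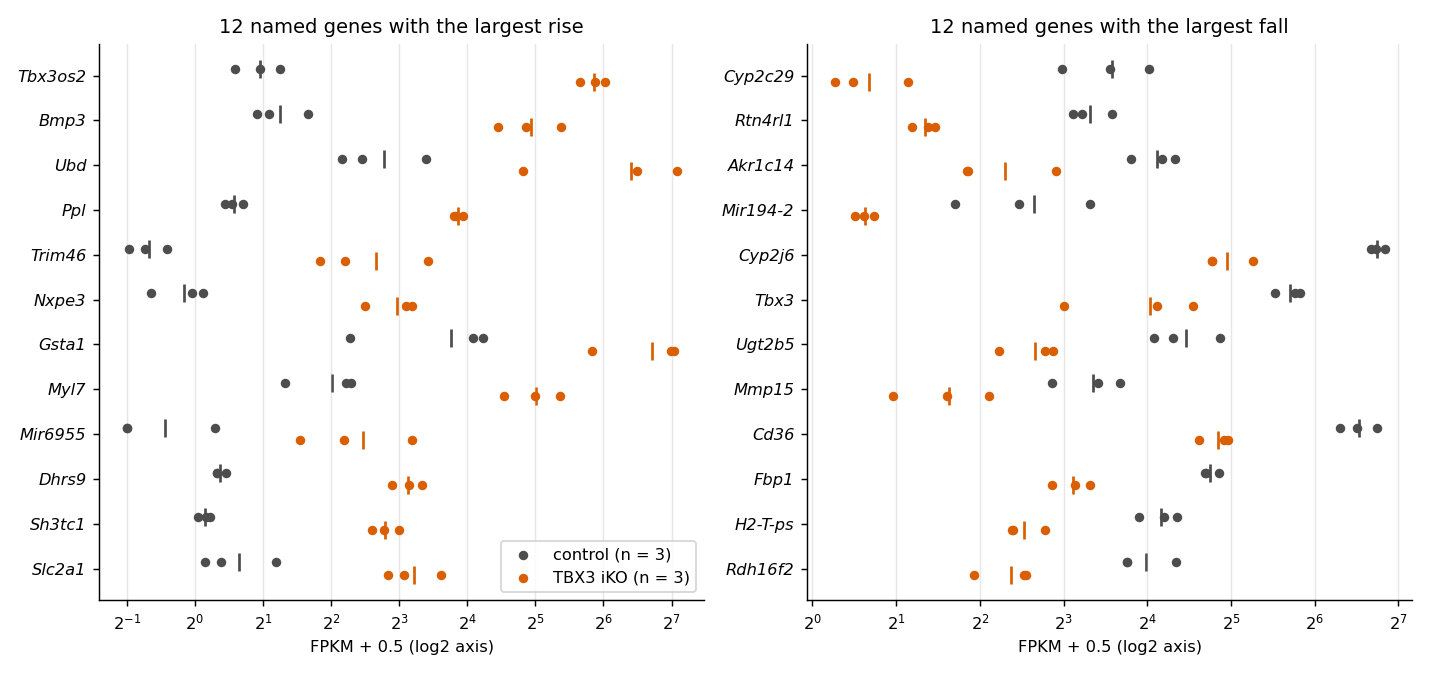
FPKM + 0.5 on a log2 axis for the 12 genes with the largest rise (left) and the 12 with the largest fall (right), one point a library, controls grey and TBX3 iKO orange, with a tick at each group's mean. The 24 genes were picked among those whose groups do not overlap. Ppl, Dhrs9 and Sh3tc1 have tight groups, and Ubd and Tbx3 spread widely among iKO libraries.

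Several genes that digest and carry sugars fell. Of 16 listed genes, all tested, 6 fell (2.09% of all genes did) and 1 (Slc2a1) rose, with a list median of -0.53 against -0.06 for all genes, and 12 had all iKO values below all controls (15.5% of all genes tested had such a lower pattern). Lct, the lactase of the brush border, fell by 0.89 on the log2 scale, from 546, 606 and 535 FPKM to 350, 243 and 322 FPKM. Slc5a4a, a sugar-binding member of the sodium-glucose transporter family, fell by 0.88, from 144, 105 and 108 FPKM to 58.0, 65.9 and 67.4 FPKM. Both stayed well expressed in the knockout. Slc5a12, a sodium-coupled lactate carrier of the same family, fell by 0.80, Treh, the trehalase, by 0.66, Slc5a4b by 0.63 and Slc5a11, a carrier of inositol and glucose, by 0.60 on the log2 scale. The main intestinal glucose transporter Slc5a1 was at 1639, 1400 and 1507 FPKM in controls and at 1254, 1555 and 1452 FPKM in iKO libraries, and its groups overlapped. Sis, sucrase-isomaltase, had a difference of -0.41 that missed the threshold (adjusted p 0.0543, limma). None of these falls passed without any 1 control or without iKO 1, 2 passed without iKO 3 and 6 without iKO 2, while the median stayed between -0.45 and -0.58 in these fits. After median centring 3 fell, and without the filter on low values 2 did.

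Of 23 genes of fat absorption and lipoproteins, 22 were tested, 6 fell and none rose, against 2.09% and 1.34% of all genes, with a median of -0.02. After median centring 4 fell and without the filter 3 did, and the median was 0.04 with centring. Besides Cd36, the falls were in 2 apolipoproteins, a pair of sterol exporters and a lipid droplet coat protein. Apoc3, an apolipoprotein that slows the clearance of triglyceride-rich particles, stood at 1071, 1183 and 947 FPKM in controls and at 388, 402 and 436 FPKM in iKO libraries (log2 change -1.38 ± 0.12 SE, adjusted p 3.59e-03, limma), and its call held without any 1 library. Apoa4, an apolipoprotein of chylomicrons that is strongest towards the villus tip, stood at 7645, 7075 and 7479 FPKM in controls and at 4248, 3722 and 4724 FPKM in iKO libraries. Both remained among the abundant transcripts of the knockout epithelium. Abcg8 and Abcg5, the partner subunits of the exporter that returns sterols to the gut lumen, fell by 0.68 and 0.54, and Plin2, a lipid droplet protein, fell by 0.65 on the log2 scale. Apob and Mttp, which build the chylomicron, had differences of -0.37 and -0.02, and Fabp1 one of -0.03, none of which passed. Apoa4 lost its call without any 1 control or iKO 1 (adjusted p up to 0.0918, limma). It also lost it without the filter and after median centring or quantile normalisation. Abcg8 lost its call without any 1 control or iKO 3 (adjusted p up to 0.117, limma). Abcg5 and Plin2 were not followed gene by gene through these fits.

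Enzymes and exporters of foreign compounds fell in 9 of 36 cases. Of 37 listed genes 36 were tested, 9 fell (2.09% of all genes did) and 1 (Gsta1) rose, with a median of -0.32. The falls were spread over the steps of the pathway. The P450 genes Cyp2c29, Cyp2j6, Cyp2c66, Cyp2c65 and Cyp4f14 fell by 2.88, 1.81, 1.22, 0.91 and 0.62 on the log2 scale, and the oxygenase Fmo5 fell by 0.55. The glucuronosyltransferases Ugt2b5 and Ugt2b34 fell by 1.79 and 0.95, and the canalicular-type exporter Abcc2 fell by 0.60 on the log2 scale. The Cyp3a members Cyp3a11, Cyp3a13 and Cyp3a25 had differences of -0.39, 0.05 and -0.35 and did not pass, and neither did the xenobiotic receptor gene Nr1i2, at 107, 101 and 117 FPKM in controls and 117, 120 and 110 FPKM in iKO libraries. After median centring, as without the filter, 5 fell. Without 1 library, 2 to 8 of these genes still fell, and Gsta1 rose only without iKO 2. In fatty acid oxidation and ketone synthesis, 1 of 21 tested genes fell, Cyp4a10, a fatty acid hydroxylase, from 2.86, 3.40 and 2.21 FPKM to 0.474, 0.415 and 0.381 FPKM. Its fall of 1.83 on the log2 scale held without any 1 library.

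Retinoid genes moved in both directions. Of 18 listed genes, 11 were tested, Dhrs9 rose, and Retsat and Lrat fell (1.34% and 2.09% of all genes rose and fell). Retsat, a retinol saturase, stood at 50.8, 53.5 and 55.8 FPKM in controls and at 29.5, 25.4 and 29.8 FPKM in iKO libraries. Lrat, which esterifies retinol for storage, went from 14.7, 14.2 and 11.1 FPKM to 7.72, 5.70 and 8.06 FPKM, and its call was lost in every fit without 1 library (adjusted p up to 0.167). That of Retsat was lost without control 2 or control 3 (up to 0.064). The carrier Rbp2 and the repressor gene Isx had differences of -0.08 and 0.04.

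Of 8 listed genes of bile acid handling and of the ileum 5 were tested, and 3 rose (1.34% of all genes did). The other two tested were Slc10a2 and Guca2a, which encodes the gut hormone guanylin. Nr1h4, the nuclear bile acid receptor FXR, stood at 13.6, 12.7 and 15.8 FPKM in controls and at 65.3, 62.1 and 46.8 FPKM in iKO libraries (log2 change 2.00 ± 0.16 SE, adjusted p 3.11e-03, limma). It was the only 1 of 25 tested enterocyte transcription factor genes to pass, and its call held without any 1 library. Slc51b and Slc51a encode the 2 chains of the exporter that moves bile acids from enterocytes into blood. Slc51b went from 110, 117 and 137 FPKM to 280, 225 and 260 FPKM, and Slc51a from 195, 179 and 172 FPKM to 281, 298 and 305 FPKM. Each of the 3 genes was higher in every iKO library than in every control, as was every gene called higher. The ileal uptake carrier Slc10a2 stayed between 0.987 and 2.63 FPKM in all libraries, and Fabp6 and Fgf15, genes of the ileum, were at most 0.417 and 0.106 FPKM. The call of Slc51b was lost without control 1 or control 2 (adjusted p up to 0.0596) and that of Slc51a without any 1 control or iKO 1 (up to 0.0885).

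No other enterocyte transcription factor gene passed the test. Hnf4a stood at 129, 138 and 138 FPKM in controls and at 171, 118 and 177 FPKM in iKO libraries, Cdx2 between 46.4 and 59.5 FPKM and Gata4 between 31.5 and 34.3 FPKM in all 6. Maf, Klf4 and Creb3l3 had differences of -0.30, 0.09 and 0.30 on the log2 scale, and the largest difference after Nr1h4 was that of Hnf4g, -0.51 (adjusted p 0.285, limma). Of 16 T-box genes and partners, Tbx3 and Mga were the 2 with enough signal to be tested, and Mga had a difference of -0.21. Tbx2, the closest relative of Tbx3, was at most 0.0891 FPKM in any library. Genes that respond to BMP did not pass either way. Id1 stood at 67.1, 58.2 and 87.7 FPKM in controls and at 114, 91.7 and 75.7 FPKM in iKO libraries, Id3 had a difference of 0.35 and Smad6 one of 0.78 (adjusted p 0.107, limma). Id2 had the largest negative difference, with 27.5, 23.1 and 40.0 FPKM in controls and 15.5, 19.4 and 14.1 FPKM in iKO libraries (-0.84, adjusted p 0.101, limma). Without iKO 2, Smad6 passed at 0.97 (adjusted p 0.0436). None of 7 tested genes of TGF-beta and activin response passed, with a median of 0.33.

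MHC class II genes were higher in every knockout library. Of 7 listed genes 6 were tested, all 6 had each iKO value above each control (8.23% of all genes tested had such a higher pattern), 4 rose past the threshold (1.34% of all genes did) and the median was 1.59. H2-Aa, an antigen-presenting chain, stood at 27.5, 20.9 and 48.3 FPKM in controls and at 131, 289 and 131 FPKM in iKO libraries. Cd74, the invariant chain that escorts class II molecules, stood at 139, 92.8 and 223 FPKM in controls and at 457, 1047 and 515 FPKM in iKO libraries. H2-DMb1 and H2-Eb1 rose by 1.70 and 1.49 on the log2 scale, and H2-Ab1 and H2-DMa had differences of 1.39 and 1.08 with adjusted p of 0.065 and 0.113 (limma). Ciita, the switch for these genes, was under the filter, at most 0.472 FPKM in controls and at most 1.33 FPKM in iKO libraries. Without iKO 2 only H2-Aa passed, and without any other 1 library none did (adjusted p up to 0.15 for the 4 genes), while the list median stayed between 1.32 and 1.85. Without the filter none passed, and without the variance trend 1 did. B cells, macrophages and dendritic cells also carry class II. The 10 B and plasma cell markers in the table summed to 2.49 to 4.92 FPKM in controls and to 1.67, 20.3 and 7.88 FPKM in iKO libraries, with Cd79a at 0 in all but iKO 2. The 15 myeloid markers summed to 10.1 to 14.6 FPKM in controls and to 8.41, 15.3 and 14.3 FPKM in iKO libraries. The part of these cells in the class II values was not tested. None of 16 tested MHC class I genes passed, with a median of 0.02.

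Antimicrobial genes of the lower villus gave 2 rises among 11 tested (1.34% of all genes rose), and none without the filter. Lypd8, which keeps flagellated bacteria off the epithelium, stood at 976, 529 and 689 FPKM in controls and at 3145, 4743 and 2372 FPKM in iKO libraries (log2 change 2.21 ± 0.30 SE, adjusted p 0.0163, limma). Gsdmc4, a gasdermin, rose by 0.76 on the log2 scale. Reg3b and Reg3g, secreted antibacterial lectins, did not pass. Reg3b stood at 3674, 1812 and 5578 FPKM in controls and at 9739, 16332 and 8140 FPKM in iKO libraries, with groups apart but an adjusted p of 0.0948 (limma). Reg1 lay the other way, at 628, 314 and 483 FPKM in controls and 223, 476 and 75.5 FPKM in iKO libraries. Lypd8 lost its call without control 2, control 3 or iKO 1 (adjusted p up to 0.0759), and Gsdmc4 in every fit without 1 library (up to 0.142).

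Of 22 tested cholesterol synthesis genes, 2 rose (1.34% of all genes did) and none fell, and 12 had every iKO value above every control (8.23% of all genes did), with a median of 0.62. None passed without the filter, 1 without the variance trend and 4 after quantile normalisation. Sqle, the squalene epoxidase, stood at 2.82, 1.40 and 1.56 FPKM in controls and at 8.78, 8.84 and 6.08 FPKM in iKO libraries. Hmgcs1, an early enzyme of the pathway, went from 31.5, 23.6 and 23.4 FPKM to 49.2, 63.5 and 42.3 FPKM. Srebf2, the regulator of the pathway, had a difference of 0.89 that did not pass (adjusted p 0.0782, limma). Hmgcs1 lost its call in every fit without 1 library (adjusted p up to 0.166), and Sqle without control 2, control 3 or iKO 1 (up to 0.0761).

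**Figure D3:**
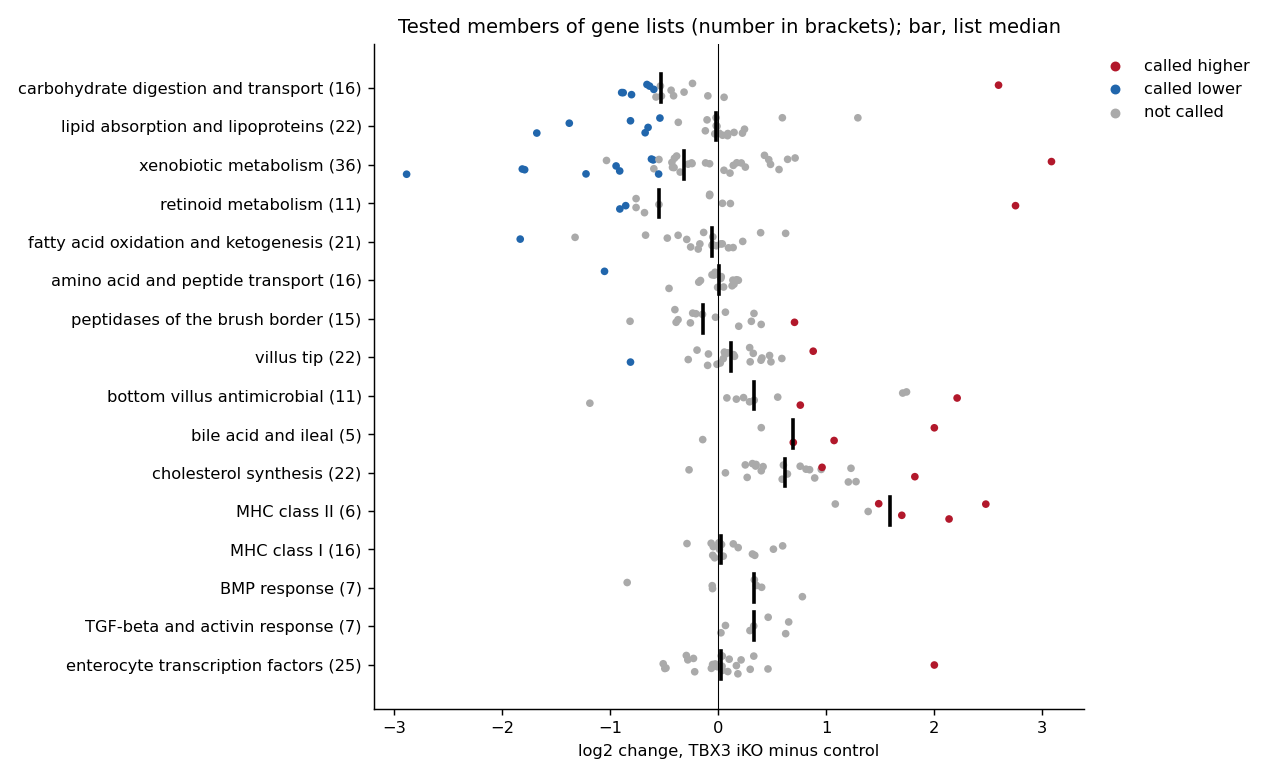
Log2 change (TBX3 iKO minus control, horizontal axis) of the tested members of 16 gene lists, one point a gene, with a bar at each list's median. Carbohydrate genes lie mostly left of 0 with a median of -0.53, MHC class II genes all lie right of 1, and amino acid transporters centre on 0.01.

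Other lists of transport and digestion held 1 or 2 changes each. Of 16 amino acid and peptide transporters only Slc6a20a, a carrier of proline and related imino acids, passed, falling from 178, 184 and 173 FPKM to 77.5, 102 and 79.6 FPKM, and the list median was 0.01. Of 15 brush border peptidases only Enpep, the glutamyl aminopeptidase, passed, rising from 489, 467 and 479 FPKM to 807, 766 and 770 FPKM. Of 20 tested genes of ion transport, 1 rose and 1 fell. Car4, a membrane-bound carbonic anhydrase, rose from 47.9, 32.6 and 27.7 FPKM to 114, 212 and 111 FPKM. Aqp1, a water channel, fell from 114, 133 and 104 FPKM to 45.2, 37.0 and 71.3 FPKM, and Slc28a1, a pyrimidine nucleoside carrier and the 1 of 10 tested genes of the purine catabolism list to pass, from 66.1, 82.3 and 62.7 FPKM to 34.9, 25.3 and 39.0 FPKM. All 5 had groups that did not overlap, as had all 336 called genes. Of 22 tested villus tip genes, Nfkbia, an inhibitor of NF-kappaB, rose by 0.88 and Apoa4 fell, while Krt20, Nt5e and Egfr had differences of 0.06, 0.49 and 0.14 on the log2 scale. Single members also passed among 5 tested Wnt targets (Sp5, a fall of 0.86 on the log2 scale), 20 interferon genes (Zbp1, 0.75), 14 stress genes (Asns, 1.34) and 4 repair genes (Il33, 1.15), where 3.43% of all genes passed. None of these calls held in all 6 fits without 1 library. Aqp1, Zbp1 and Asns kept theirs in 1 of the 6 (adjusted p up to 0.151, 0.0819 and 0.103, limma). Enpep, Slc28a1 and Il33 kept theirs in 2 (up to 0.0715, 0.111 and 0.105). Car4, Slc6a20a and Nfkbia kept theirs in 3 (up to 0.0885, 0.0639 and 0.0715) and Sp5 in 4 (up to 0.0761).

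No marker of goblet, Paneth, tuft or enteroendocrine cells passed in the fit of all 6 libraries, and neither did any of 24 tested cell cycle genes or 9 of stem cells and crypts. Among enteroendocrine genes Nts, neurotensin, stood at 29.6, 30.7 and 21.5 FPKM in controls and at 5.95, 14.7 and 4.48 FPKM in iKO libraries (adjusted p 0.0629, limma). Zg16, a goblet cell lectin, stood at 1410, 552 and 471 FPKM in controls and at 278, 1739 and 82.4 FPKM in iKO libraries, so that iKO 2 was the highest of all and iKO 3 the lowest. T cell and intraepithelial lymphocyte genes behaved alike. Their median against the control mean was -1.41 in iKO 1, 0.53 in iKO 2 and -1.48 in iKO 3, and none of 12 passed. Cd3e, a chain of the T cell receptor complex, stood at 4.26, 4.88 and 3.09 FPKM in controls and at 1.11, 4.60 and 1.12 FPKM in iKO libraries. Without iKO 2, where 219 of all 9788 genes fell, 8 of the 12 T cell genes and 2 of 14 enteroendocrine genes did, with medians of -1.43 and -1.14. That library was set apart by its high T cell values, so the T cell count follows in part from the choice and adds no support. The part of these cells in other results was not tested.

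**Figure D4:**
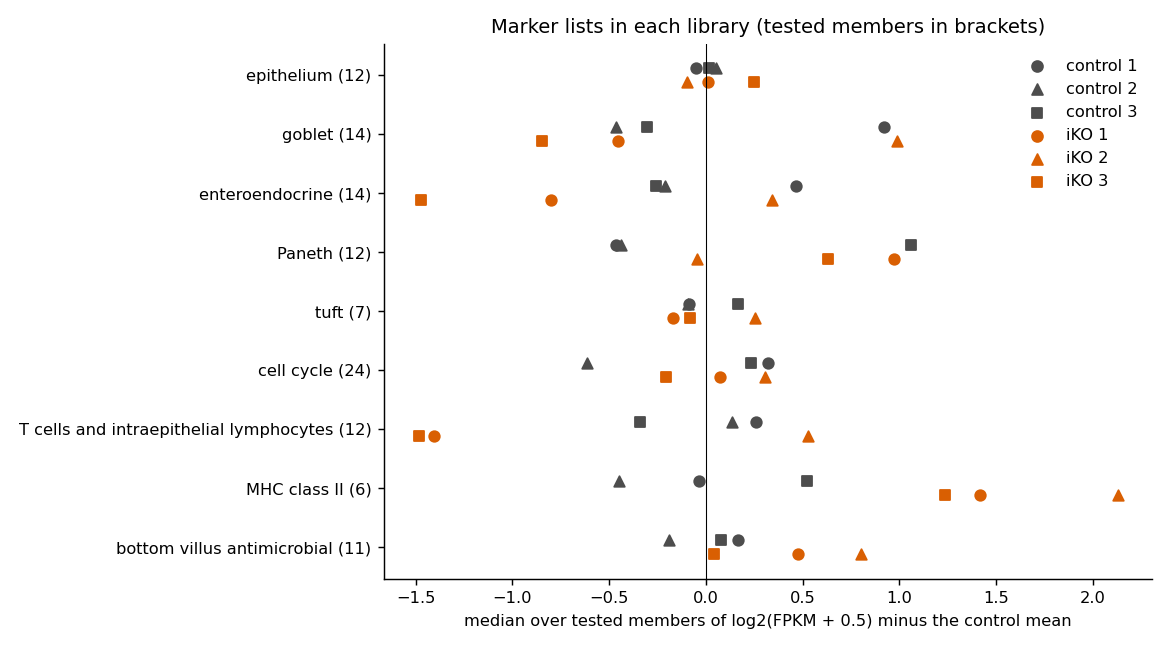
Median over the tested members of each marker list of log2(FPKM + 0.5) minus the mean of the controls (horizontal axis), one point a library, controls grey and TBX3 iKO orange, with shapes for library numbers. MHC class II medians are 1.42, 2.13 and 1.23 in iKO libraries 1, 2 and 3 and at most 0.52 in controls, while T cell medians split iKO 2 (0.53) from iKO 1 and iKO 3 (-1.41 and -1.48).

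The series also deleted Smad1 and Smad5, and Smad1, Smad4 and Smad5, in the same epithelium, which allows the knockout of TBX3 to be set beside loss of the BMP SMADs. The TBX3 table has no library in common with the SMAD tables, each table was normalised on its own, and no test crosses them. The TBX3 libraries were male by their sex genes, while Xist passed the filter in the day 30 SMAD table. Sexes may therefore be mixed there, which was not tested. Tbx3 was one of the genes that fell in each SMAD comparison: its change was -2.34 in iDKO at day 6, -1.70 in iDKO at day 30 and -1.99 in iTKO at day 30 on the log2 scale. The groups at day 30 share their 5 controls with each other, so their values are given side by side only. Of the 199 genes that were called lower in TBX3 iKO and tested in both tables, 96 (48.2%) were also called lower in iDKO at day 30, where 10.3% of all genes tested in both were, and 11 (5.53%) were called higher. These 96 are 9.91% of the iDKO list. Of 126 genes called higher, 51 (40.5%) were also called higher in iDKO at day 30, against 9.98% of all genes, and they are 5.41% of that list.

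At day 6, 99 of 196 lower genes (50.5%) and 51 of 125 higher genes (40.8%) were called the same way in iDKO, against 8.94% and 15.8% of all genes. They are 11.6% and 3.38% of the iDKO lists of that day. In iTKO at day 30 the shares were 75 of 199 (37.7%) and 55 of 126 (43.7%), against 8.89% and 10.1%, and 8.94% and 5.80% of the iTKO lists. Genes called only in TBX3 iKO are not shown to differ between the mutants, since the difference was not tested.

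**Figure D5:**
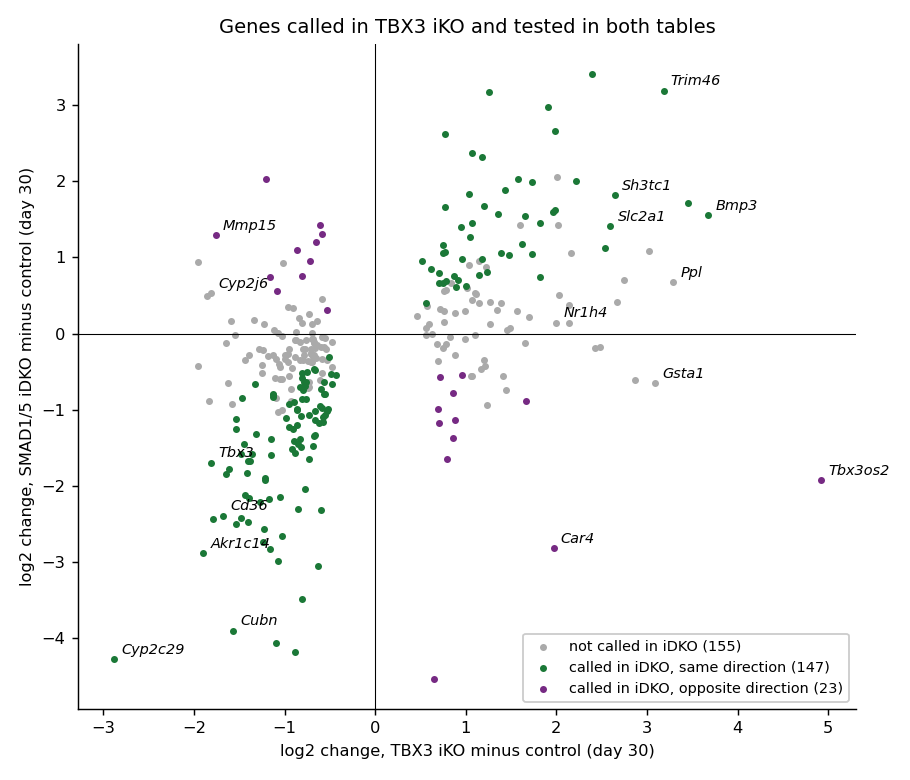
Log2 change in SMAD1/5 iDKO at day 30 (vertical axis) against that in TBX3 iKO at day 30 (horizontal axis) for the 325 genes called in TBX3 iKO and tested in both tables, one point a gene. Of these, 147 were called in the same direction in both (green) and 23 in opposite directions (purple), with Cyp2c29 low in both and Tbx3os2 and Car4 high in TBX3 iKO and low in iDKO.

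Among the genes tested in all 4 comparisons, 35 of the 121 higher in TBX3 iKO were called higher in all 3 SMAD comparisons, as were 4.89% of all such genes, and 58 of the 192 lower ones were called lower in all, as were 4.02%. Bmp3, Lypd8, Slc2a1, Trim46 and Sh3tc1 were among those higher in all. Bmp3 was higher by 3.67 in TBX3 iKO and by 2.31, 1.55 and 3.04 in iDKO day 6, iDKO day 30 and iTKO on the log2 scale. Lypd8 was higher by 2.21, 2.10, 2.00 and 1.79 in the same order. Among those lower in all were Slc5a4a, Slc5a12 and Slc5a11 of the sodium-glucose transporter family and the nucleoside and imino acid carriers Slc28a1 and Slc6a20a. The lipid genes Cd36 and Apoc3 and the enzymes Cyp2c29, Cyp2c66, Ugt2b34, Lct and Lrat were too. Apoc3 was at similar changes throughout, -1.38, -1.73, -1.68 and -1.75. Slc5a12 was at -0.80 in TBX3 iKO and at -5.88, -3.48 and -2.75 in the SMAD comparisons, and Slc28a1 at -1.09 against -4.16, -4.07 and -3.68.

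Other genes were called in TBX3 iKO and in none of the SMAD comparisons, 38 higher (31.4%) and 59 lower (30.7%), and 63.0% of all genes tested in the 4 had no SMAD call. Nr1h4 was one, with 2.00 in TBX3 iKO against 0.06, 0.14 and 0.44. Others higher were Myl7, Gsta1, Slc51b and the 4 MHC class II genes, and among those lower were Cyp2j6, Fbp1, Rtn4rl1, Cyp4a10 and Apoa4. Apoa4 had changes of 0.02, 0.14 and -0.29 in the SMAD comparisons. A few genes lay in opposite directions in all. Of the 121 higher in TBX3 iKO, 7 were called lower in all 3 SMAD comparisons, as were 4.02% of all genes. These were C1qtnf12, Car4, Glod5, Gnb5, Rhou, Slc51a and Tbx3os2. Of the 192 lower, 3 (Alcam, Aldh18a1 and Plin2) were called higher in all 3, as were 4.89% of all genes. Car4 was at 1.97 in TBX3 iKO and at -3.25, -2.82 and -1.18 in the others. Id1, a direct BMP target, had a change of 0.40 in TBX3 iKO, where it did not pass, and fell by 1.99, 2.00 and 2.96 in the SMAD comparisons. Of the 15 brush border peptidases, 14, 13 and 8 fell in the SMAD comparisons, which called 23.8%, 18.7% and 18.1% of all their genes in either direction. In TBX3 iKO 1 of the 15 rose and none fell.

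The TBX3 controls had oil and the knockouts tamoxifen. Of the controls in the day 30 SMAD table, 2 had tamoxifen and 3 had oil, though they also differ in line and Cre, and these few libraries give wide errors. Xist, under the filter in the TBX3 table, passed it in the day 30 SMAD table. Y-linked genes varied widely among these controls (SE 2.93 for Eif2s3y and 2.35 for Ddx3y), so the controls may differ in sex too, which was not tested. The median log2 difference, tamoxifen minus oil, was 0.07 for genes called higher in TBX3 iKO, -0.10 for those called lower and 0.0076 for all genes. Named genes, picked after their values were seen, differed more. Slc51b, which rose by 1.07 in TBX3 iKO, was 0.97 ± 0.28 (SE) higher with tamoxifen, and Car4 was higher by 0.88 ± 0.38, Gsdmc4 by 1.67 ± 0.96, Gsta1 by 1.86 ± 1.78 and H2-Aa by 0.68 ± 0.49, all in the direction of TBX3 iKO. Tbx3os2, which rose by 4.92 in TBX3 iKO, was also higher with tamoxifen, by 0.89 ± 0.28 (SE). Cyp2c29 was 2.01 ± 0.48 (SE) higher and Bmp3 stood at -0.59 ± 0.27, both against the direction of TBX3 iKO. None of these differences passed the adjusted threshold (limma), which does not show that they are 0.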

How the data were processed

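The libraries hold polyadenylated RNA read from both ends (NovaSeq X Plus), per the labels. The submitters' processing notes list HISAT2 2.2.1, Subread and featureCounts 2.0.1, with 2 mouse builds, GRCm39 and mm10, not tied to tables. The authors deposited FPKM values. Of 18164 rows in the TBX3 table, 18 that repeat 9 symbols were left out. FPKM values were taken to log2 after adding 0.5 and modelled in R 4.3.3 by limma 3.58.1 with a mean-variance trend, and the Benjamini and Hochberg adjustment ran over the 9788 genes tested. The procedure was tested on simulated data. The SMAD1/5 day 6 and the day 30 SMAD tables were fitted alike, the day 30 table with its 5 controls as 1 group and genes kept at FPKM of at least 1 in 2 libraries. The SMAD4 knockout at day 6 was not used here, nor were total counts. Depths are approximate, from the smallest FPKM steps of genes with exon lengths in GENCODE, so no counting intervals are given.

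Genes named are Tbx3, the 12 largest rises and 12 largest falls among called genes with groups apart, 5 FPKM or more on average in the higher group and no predicted-gene symbol, and then up to 4 members a list of smallest adjusted p, with the transcription factor, BMP response and T-box lists. Other listed genes, Cd79a and those of the closing part were picked after their values were seen. Members and the 41 lists were chosen with earlier results of these data known. Alternatives were pseudocounts of 0.1 and 1, no filter, a minimum of 5 FPKM, median centring, quantile normalisation, no trend, a robust prior, the replicate block and each library left out; the block in the SMAD fits and the comparison of tamoxifen and oil controls were added after the data were seen. Residual correlations of equally numbered libraries were -0.151, -0.312 and -0.010 in the TBX3 table, so numbers were not taken as pairs, and 0.143, 0.583 and 0.221 at day 6 in the SMAD1/5 table, where they were taken to pair. The values printed are without the block, which moved no day 6 overlap by more than 1.5 times.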

Additional observations from a re-analysis of the deposited data

How the results depend on the processing

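The counts of genes called are the least stable values. Where 131 genes were higher and 205 lower, 55 and 71 were without the filter on low values, which tests 18146 genes, and 135 were lower after median centring. With the replicate block 23 were higher and 18 lower, although equal numbers did not mark pairs, and 40 of the 336 genes kept their call. Leaving out 1 library gave 25 to 127 higher and 22 to 219 lower. The lists of falls shrank most without a control, and 243 of the 336 genes kept their call without iKO 2. No called gene changed sign under any of these alternatives. Only centring and quantile normalisation could have changed one, since all 336 called genes had groups that did not overlap. Of 56 named genes called, 16 kept the call in all 6 fits without 1 library, 6 in none, 30 under all 8 other settings and 18 with the block. The call of Tbx3 itself was lost under 6 of those 8 settings. Without 1 TBX3 library, the genes shared with the SMAD comparisons numbered 11 to 55 higher and 10 to 87 lower for iDKO at day 6, 10 to 53 and 10 to 97 for iDKO at day 30, and 11 to 53 and 9 to 79 for iTKO. The TBX3 lists behind these counts changed size as well, with 25 to 127 higher and 22 to 219 lower genes. After median centring of the TBX3 table, which called 135 genes lower, 63 and 48 lower genes were shared with iDKO and iTKO at day 30. With the replicate block in the SMAD fits, 28 higher genes (22.2%) and 53 lower genes (26.6%) were shared with iDKO at day 30. Of all genes tested in both, 3.2% and 3.74% were called that way. For iTKO 46 lower genes (23.1%) were shared, against 4.49% of all genes. The block at day 6, where numbers could mark pairs, moved no shared count by more than 1.5 times. The shorter motif was in 3.70% and 5.61% of windows of genes called higher and lower. Depth limits genes near 0: Trim46 in controls rests on 1 to 12 fragments.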

Other observations

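The called genes below are in none of the lists and were picked after their values were seen, so they stand for no group, and members of the same pathways that did not pass are not counted. Lpcat4 and Agpat4, acyltransferases of phospholipid synthesis, went from 1.21, 1.45 and 0.981 FPKM to 8.18, 9.14 and 8.001 FPKM and from 0.573, 0.219 and 0.733 FPKM to 4.03, 3.57 and 4.13 FPKM, in control and iKO libraries 1, 2 and 3. Scd2, a fatty acid desaturase, and Elovl6, a fatty acid elongase, rose by 1.99 and 1.36 on the log2 scale. Hk2, hexokinase 2, and Pfkfb3, which makes an activator of glycolysis, rose by 1.60 and 0.75, and Pck1, a gluconeogenic enzyme, by 0.65, while Fbp1 of the same pathway fell by 1.64 on the log2 scale. Prkaa2, a catalytic subunit of AMP kinase, went from 3.36, 3.49 and 3.07 FPKM to 13.6, 10.8 and 10.4 FPKM.

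Prdx6, a peroxiredoxin, stood at 33.2, 24.9 and 29.8 FPKM in controls and at 125, 160 and 79.5 FPKM in iKO libraries, and Gsr, glutathione reductase, rose by 0.88 on the log2 scale. Cat, catalase, fell by 0.89 and Gclm, a subunit of the enzyme that starts glutathione synthesis, by 0.67. Selenop, the plasma carrier of selenium, fell from 3076, 3887 and 3137 FPKM to 1421, 1661 and 1632 FPKM, and Sephs2, which makes selenophosphate, fell by 0.57 on the log2 scale. The necroptosis kinase gene Ripk3 went from 12.9, 10.4 and 16.4 FPKM to 51.0, 38.9 and 43.3 FPKM, and Ccl28, a chemokine of mucosal plasma cells, from 8.31, 5.45 and 6.78 FPKM to 46.3, 49.4 and 25.1 FPKM. The flagellin sensor genes Naip5 and Naip6 fell by 1.05 and 0.84, while their relative Naip1 rose by 0.77 on the log2 scale, in a family of similar genes whose fragments could be split. Cubn, the cubilin receptor for vitamin B12, fell from 43.9, 61.3 and 52.7 FPKM to 18.9, 12.4 and 21.9 FPKM. These changes passed the adjusted threshold in the limma fit of all 6 libraries and were not followed through the other settings.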
